A study of Drosophila melanogaster with 3 samples.

Results

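Binding of the CG12071 protein was examined at 37 genes that mark glia and blood cells (hemocytes) or build the basement membrane in Drosophila melanogaster. The genes were taken from a fixed list of names, of which 17 were glial, 11 were hemocyte genes and 9 encoded basement membrane components, out of 13945 protein-coding genes in all. All 37 names were found in the annotation. The material was whole embryos of the strain CG12071-GFP, males and females pooled, collected at 12 to 24 hours, in which a stable transgene makes CG12071 with GFP (green fluorescent protein) at its C-terminus. Sonication cut the chromatin to 200 to 800 bp, and the DNA bound by the tagged protein was precipitated and sequenced (ChIP-seq). There were 3 biological replicates of 1 group, so no comparison of conditions was possible, and the labels name no untagged strain as a group. All replicates carried the tagged protein, and the labels do not say whether the untagged copy of the gene was still present. The labels contradict themselves, since their free-text line names an input control while the antibody and control fields fit an immunoprecipitation with its own control, and the latter reading was used. Since whole embryos were used, binding in a few cells and weak binding in many cells cannot be told apart, and no peak can be assigned to glia or to hemocytes. The assay measured DNA binding and no transcript, so the cell type markers among the genes could not be used to check the tissue.

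Embryonic glia arise under the control of the transcription factor gcm, which switches on repo, and they insulate nerves, form the blood-brain barrier and clear neurotransmitters and debris. Hemocytes arise from the head mesoderm under the GATA factor srp, migrate through the embryo, engulf dying cells and secrete much of the basement membrane. The basement membrane is a sheet of laminin trimers and type IV collagen, joined by linking proteins, that surrounds the nervous system and most other tissues.

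Each replicate and the pooled reads had a deposited list of 30000 entries, in which peaks and background stood together, ranked here by the authors' signal value, so that rank 1 is the strongest. A further list of 4261 entries held the peaks that the authors kept after testing how well replicates reproduced each other, and these are called thresholded peaks below. The position of a peak was taken as its summit, the base of highest signal. A peak counted at the transcription start site (TSS) of a gene when its summit lay within 500 bp of any annotated TSS of that gene, and in the gene body when it lay between the gene's outermost bounds. Replicate 3 was the weakest list, with 4015 entries whose q-value was at most 0.05, against 13828 in replicate 1 and 12616 in replicate 2. A replicate was said to support a thresholded peak when it had a summit within 100 bp among its own 4261 strongest entries.

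Thresholded peaks lay at the TSS of 5 of the 37 genes (13.5%), against 13.4% of all protein-coding genes. The 5 genes were moody, Gli and Nrg among the glial genes, PPO3 among the hemocyte genes and LanB2 among the basement membrane genes. When gene bodies were included, 10 of the 37 genes (27.0%) held a thresholded peak, against 18.2% of all protein-coding genes, which added loco, Gs2, srp, LanA and LanB1. By class, the glial genes had 5 of 17 (29.4%), the hemocyte genes 2 of 11 (18.2%) and the basement membrane genes 3 of 9 (33.3%). The Wilson 95% intervals of the class shares overlapped widely, at 13.3% to 53.1% for glial, 5.14% to 47.7% for hemocyte and 12.1% to 64.6% for basement membrane genes, and they cover counting error only.

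The listed genes were longer than most, with a median of 7366 bp against 2166 bp over all protein-coding genes, and longer genes hold more summits by position. Among genes of up to 5 kb, 1 of 15 listed genes held a thresholded peak, against 10.4% of all genes of that size. Between 5 and 10 kb the count was 5 of 11, against 28.6%, and between 10 and 20 kb it was 3 of 9, against 44.5%. Of the 2 longest genes, 1 held a peak, against 58.6% of all genes over 20 kb. The size groups thus stood on both sides of the background.

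**Figure D1:**
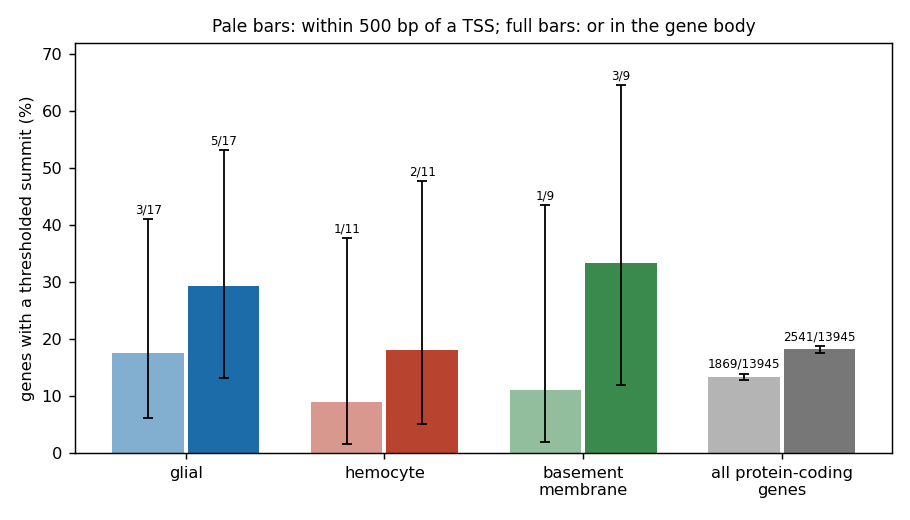
Share of genes (%) with a thresholded summit in each class and among all protein-coding genes, within 500 bp of a TSS (pale bars) or there or in the gene body (full bars), with Wilson 95% intervals as error bars and counts above the bars. The class intervals overlap each other and include the shares of all protein-coding genes, 13.4% and 18.2%.

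The same count was made in the strongest 4261 entries of each replicate alone. Replicate 1 had 12 of the 37 genes (32.4%) against 19.7% of all protein-coding genes, replicate 2 had 11 (29.7%) against 19.0%, and replicate 3 had 10 (27.0%) against 16.6%. The hemocyte genes gave 2, 1 and 1 of 11 in the order of the replicate numbers, and they were not the same genes: Pvr and PPO3 in replicate 1, srp in replicate 2 and PPO3 in replicate 3. PPO3 entered by different sites, at the TSS in replicate 1 (rank 2818) and in the gene body in replicate 3 (rank 2191). Its TSS entry in replicate 3 was rank 4428, outside the strongest 4261. The basement membrane genes gave LanA, LanB1 and LanB2 in each of the 3 replicates, joined by SPARC in replicate 1. Among the glial genes, moody, loco, Gs2 and Nrg entered in each replicate, although no single thresholded peak of loco or Nrg was supported by all 3.

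The 10 genes held 17 thresholded peaks, 5 at a TSS and 12 in the gene body. Of these, 11 had their summit in an intron, 3 in a 5′ untranslated exon and 3 upstream of the gene, and 0 of 17 lay in a coding exon. Support came from all 3 replicates for 6 of the peaks, from 2 for 6 and from 1 for 5, and over all thresholded peaks these shares were 48.5%, 31.4% and 18.4%. The 6 peaks with support in all 3 replicates lay at moody, LanA, LanB1 and LanB2 and, as a pair, at Gs2. Their sequences around the summit are shown because they met the support rule in every replicate. When all entries of the replicate lists were allowed, 15 of the 17 peaks had an entry in all 3 replicates. Each window is 101 bases of RefSeq's copy of genome release 6, centred on the summit, and capitals mark a match to the forkhead core letters defined with the motif counts at the end.

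moody (chrX:2050226-2050326, plus strand): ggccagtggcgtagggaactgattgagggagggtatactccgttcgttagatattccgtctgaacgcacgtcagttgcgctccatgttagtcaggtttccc
Gs2, nearer the 5′ end (chrX:11423335-11423435, plus strand): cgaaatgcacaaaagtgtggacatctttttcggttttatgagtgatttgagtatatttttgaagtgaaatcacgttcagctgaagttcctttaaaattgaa
Gs2, farther from the 5′ end (chrX:11427548-11427648, plus strand): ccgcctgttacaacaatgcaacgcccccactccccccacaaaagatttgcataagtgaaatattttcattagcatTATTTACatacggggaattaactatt
LanA (chr3L:6216134-6216234, plus strand): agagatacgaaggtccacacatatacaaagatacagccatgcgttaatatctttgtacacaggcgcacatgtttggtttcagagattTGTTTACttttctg
LanB1 (chr2L:7813505-7813605, plus strand): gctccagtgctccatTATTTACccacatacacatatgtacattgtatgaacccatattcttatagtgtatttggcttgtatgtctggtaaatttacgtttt
LanB2 (chr3L:9614659-9614759, plus strand): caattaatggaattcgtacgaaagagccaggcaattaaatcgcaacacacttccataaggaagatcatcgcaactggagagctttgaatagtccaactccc

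In the windows above, GC content ran from 32.7% at the Gs2 peak nearer the 5′ end to 53.5% at moody. A forkhead core match stood in the windows of LanA, LanB1 and the Gs2 peak farther from the 5′ end, and the other 3 windows held none.

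**Figure D2:**
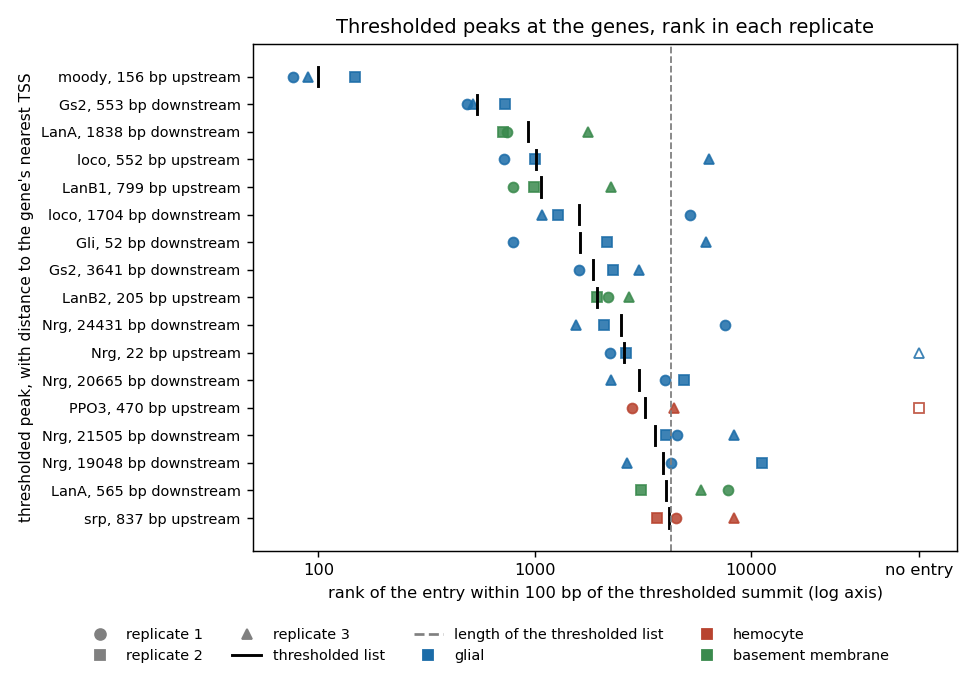
Rank (log axis) of each of the 17 thresholded peaks in the thresholded list (bar) and in replicates 1 to 3 (symbols), with the dashed line at 4261, the length of the thresholded list. The moody peak lies near rank 100 in all 3 replicates, the peaks of Gs2, LanB1 and LanB2 and the stronger LanA peak lie left of the line in each, and those of srp, PPO3 and Gli spread across it.

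Among the glial genes, moody carried the strongest peak. It encodes a G protein-coupled receptor of the glia that seal the blood-brain barrier. Its peak (chrX:2050146-2050458) was rank 100 of the 4261 thresholded peaks, with ranks of 76, 148 and 90 in replicates 1, 2 and 3, a mean of 105 ± 38.2 (SD, n = 3), and its summit lay 156 bp upstream of the first TSS. The signal values were 442, 316 and 393, each on the scale of its own list. The 3 replicates were close together, and none of the other listed glial, hemocyte or basement membrane genes reached a rank this high. The summit also lay in an intron of CG4313, a gene on the opposite strand that spans the moody promoter, so the peak cannot be given to moody by position alone.

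The septate junction and barrier genes loco and Gli had peaks that the replicates placed further apart. loco encodes a regulator of G protein signalling that acts with moody. Of its peaks, the one 552 bp upstream of an internal TSS (chr3R:22627001-22627370) was rank 1012 among thresholded peaks, against 725, 1002 and 6399 in replicates 1 to 3. The other, in an intron 1704 bp downstream of that TSS (chr3R:22624854-22625022), was rank 1598 and 5209, 1285 and 1078. The pair thus ran in opposite directions, the first low in replicate 3 and the second low in replicate 1. Gli encodes Gliotactin, a protein of the junctions where 3 cells meet, and its peak (chr2L:15762521-15762890) lay 52 bp downstream of the TSS at rank 1626, with replicate ranks of 790, 2166 and 6165. In replicate 3 its q-value was 0.123, past 0.05.

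Gs2 encodes a glutamine synthetase that converts glutamate taken up by glia. Its stronger peak (chrX:11423260-11423500) lay in an intron 553 bp downstream of the 5′ TSS at rank 542, with replicate ranks of 489, 733 and 519 and a mean of 580.3 ± 133 (SD, n = 3). The second (chrX:11427562-11427714), 3641 bp downstream of the nearest TSS, was rank 1854 and 1596, 2308 and 3050 in the replicates. All 6 replicate ranks of the pair were inside the strongest 4261. The other glutamine synthetase gene, Gs1, is described with the other genes of the pathways.

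Nrg, which encodes Neuroglian, a cell adhesion protein of the L1 family present in neurons as well as glia and epithelia, held the most peaks, 5. One (chrX:8517223-8517592) lay 22 bp from a TSS in a 5′ untranslated exon at rank 2593, at 2225 and 2631 in replicates 1 and 2, and replicate 3 had no entry within 100 bp. The other 4 lay together in 1 gap between exons of 12385 bp, present in all 9 transcripts, at 19048 to 24431 bp from the nearest TSS of Nrg. Their thresholded ranks were 3926, 3021, 3603 and 2494 along the gene, and each had an entry in every replicate. The strongest of the 4 was at 7602, 2102 and 1560 in replicates 1 to 3, so here replicate 3 placed it highest. The TSS nearest to these 4 summits belonged to another gene, PIP82.

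**Figure D3:**
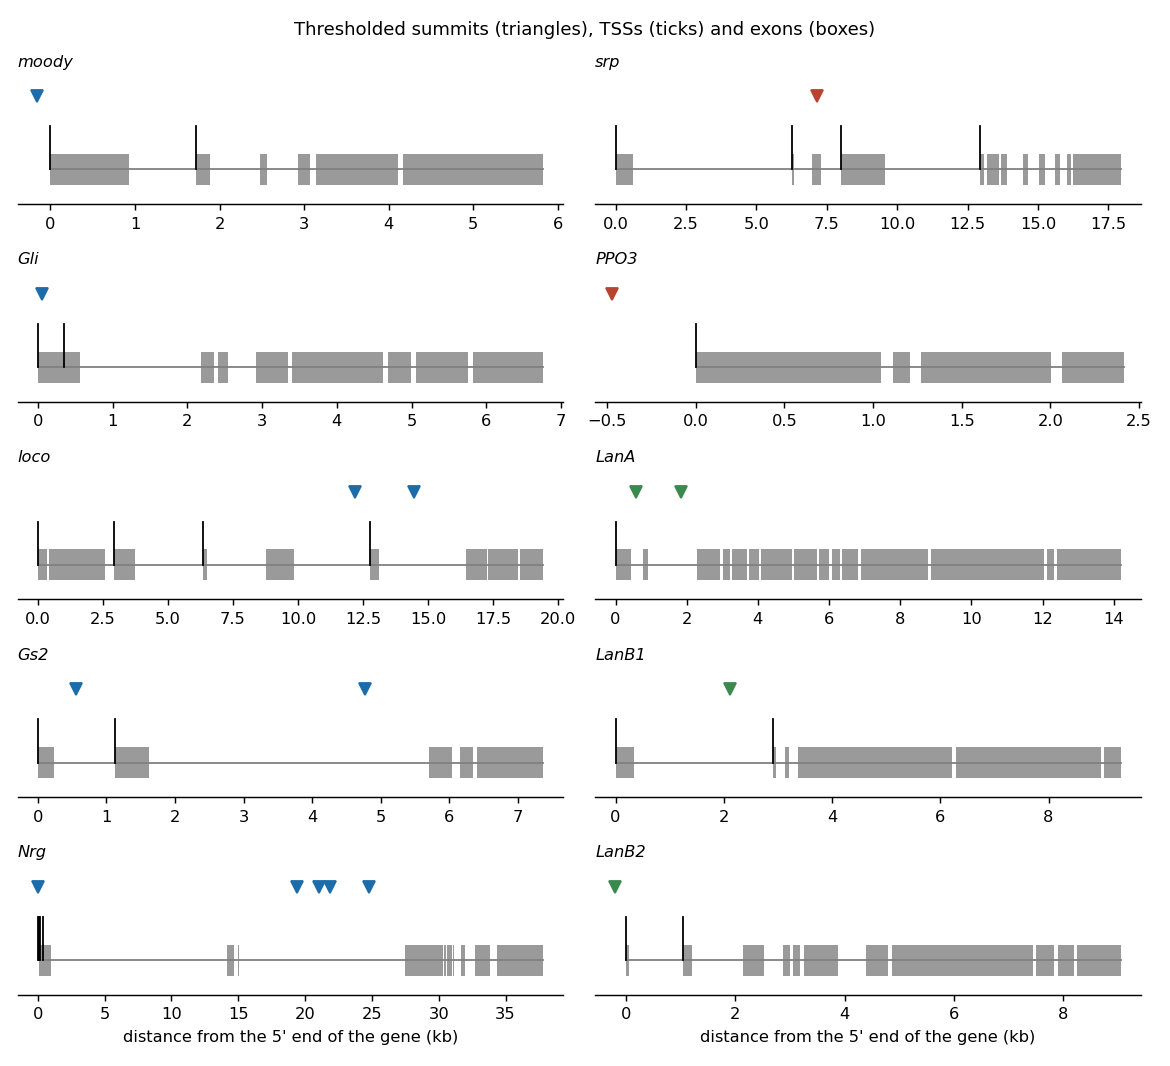
Gene models of the 10 genes with a thresholded peak, drawn from the 5′ end (kb), with exons as boxes, TSSs as ticks and thresholded summits as triangles. The Nrg summits form 1 group at the start and another of 4 inside a single intron, and the LanA, LanB1 and LanB2 summits lie in early introns or just upstream.

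The other 12 glial genes had no thresholded peak at a TSS or in the body, and 5 of the 17 had no entry in the pooled list, against 58.0% of all protein-coding genes. The regulators at the head of the pathway were among the 12 without a thresholded peak. gcm had no entry in any of the 4 lists of peaks and background, and its relative gcm2 had entries in replicates 1 and 2 only, at ranks 14100 and 23870. repo, the homeodomain factor of nearly all lateral glia, had its strongest pooled entry at rank 22398, with rank 15835 in replicate 1 and no entry in replicates 2 and 3. The pooled entry of repo lay in the gene body and that of replicate 1 at the TSS. The absence of an entry limits only what these lists could hold, since each ended at 30000.

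Several other glial genes, among them receptors and transporters, lay past the threshold, at pooled ranks from 4339 to 6758. htl, a receptor for fibroblast growth factors, had its strongest pooled entry at a TSS at rank 4339, and its strongest entries ranked 5465, 4730 and 2993 in replicates 1 to 3. drpr, the receptor with which glia engulf debris, was at 5011 in the pooled list and 4840, 3321 and 7904 in the replicates. wrapper, an immunoglobulin-domain protein of the midline glia, was at 5793 and 6892, 29432 and 2426, so that replicate 2 stood far from the others. Its nearest thresholded summit lay 405 bp past its 3′ end and 54 bp from the TSS of CG13506. The trehalose transporter gene Tret1-1 was at 6459 in the pooled list and 5766 and 4329 in replicates 1 and 2, with no entry in replicate 3. nrv2, a beta subunit of the sodium-potassium pump, was at 6758 and 2957, 3936 and 4341, and a thresholded summit of rank 3211 lay 149 bp past its 3′ end. Each rank is that of the strongest entry at the gene in that list, and the site can differ between lists. The nrv2 entry of replicate 1 lay in the gene body, with rank 17755 at a TSS. The drpr entry of replicate 3 also lay in the body, with rank 26882 at the TSS. The Tret1-1 entry was in the body in the pooled list and replicate 1 and at a TSS in replicate 2.

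The remaining glial genes ranked low or had no entry. Eaat1, the glutamate transporter that supplies the substrate of Gs2, had its strongest pooled entry at 19653 and an entry in replicate 1 alone, at 28524. Cont, the Contactin gene of the septate junction, had entries only in replicates 1 and 2, at 18563 and 18035. bnb had an entry in replicate 3 alone, at 24253. alrm, a marker of astrocyte-like glia, had none in any list.

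**Figure D4:**
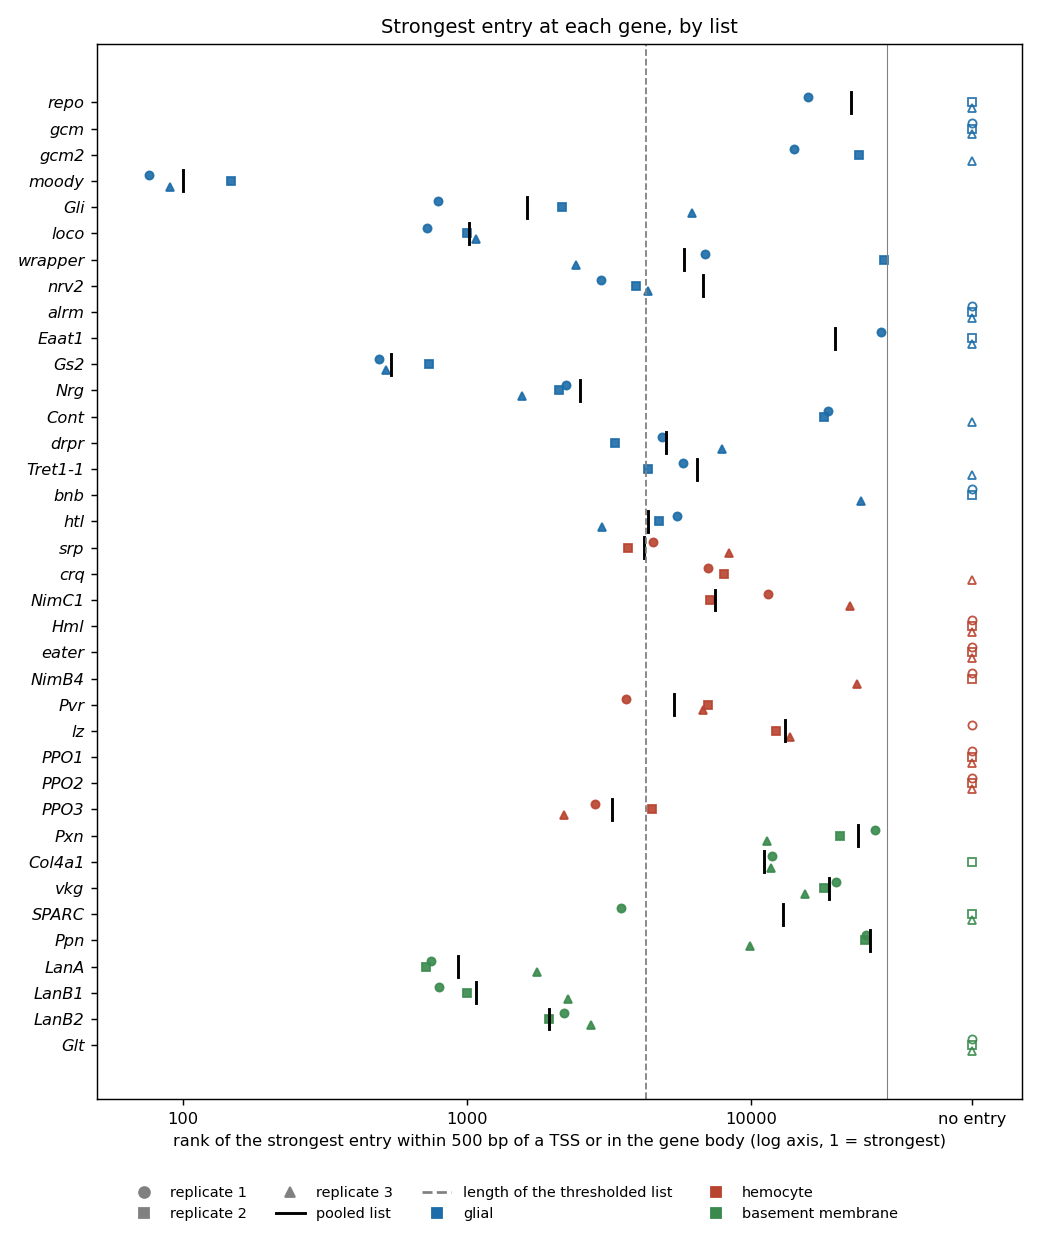
Rank (log axis) of the strongest entry within 500 bp of a TSS or in the body of each of the 37 genes, in the pooled list (bar) and in replicates 1 to 3 (symbols), with genes lacking an entry at the right edge and the dashed line at 4261. The 3 laminin genes and the glial genes moody, loco, Gs2 and Nrg stand left of the line in every list, and 7 genes have no entry in any list.

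Hemocyte genes held 2 thresholded peaks in all, both weak. srp, the GATA factor that specifies hemocytes, had a summit (chr3R:15993118-15993487) 837 bp upstream of an internal TSS, in a 5′ untranslated exon, at rank 4180 of 4261, with replicate ranks of 4514, 3671 and 8382. Only replicate 2 supported it. PPO3, a prophenoloxidase gene of the melanisation response, had a summit 470 bp upstream of its TSS at rank 3241, at 2818 and 4428 in replicates 1 and 3, and replicate 2 had no entry within 100 bp. This summit lay 39 bp from the TSS of the neighbouring gene CG9890, which was the nearest.

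No thresholded peak lay at the other 9 hemocyte genes. Among the receptors, Pvr, the receptor for the PDGF- and VEGF-related factors that guide hemocyte migration, was at pooled rank 5336, with 3622, 7037 and 6777 in the replicates. The Pvr entries of the pooled list and replicate 2 lay in the gene body and those of replicates 1 and 3 at a TSS. The phagocytic receptor NimC1 was at 7457 and 11493, 7157 and 22218. The scavenger receptor crq had no pooled entry at all, although replicates 1 and 2 had one at 7066 and 8046. The phagocytic receptor eater and the clotting factor gene Hml had no entry in any list, and the secreted family member NimB4 had one in replicate 3 alone, at 23614. Of the crystal cell genes, lz, a Runx factor, was at pooled rank 13145, with 12236 and 13643 in replicates 2 and 3, and PPO1 and PPO2 had no entry in any list. In all, 6 of the 11 hemocyte genes (54.5%) had no pooled entry, close to the 58.0% of all protein-coding genes.

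Thresholded peaks lay at a TSS or in the body of 3 of the 9 basement membrane genes (33.3%), against 18.2% of all protein-coding genes. They are described by complex, a grouping made after the values were seen. All 3 laminin genes on the list, which encode the alpha chain LanA, the beta chain LanB1 and the gamma chain LanB2 of the trimer, held a thresholded peak with support in all 3 replicates. LanA had one in its second intron (chr3L:6216130-6216280), 1838 bp downstream of the TSS, at rank 931, with replicate ranks of 746, 717 and 1756 and a mean of 1073 ± 592 (SD, n = 3). The signal values were 168, 153 and 75.4 in the replicate lists. A second, weaker one in its first intron (chr3L:6217272-6217641), 565 bp downstream of the TSS, was rank 4035 and 7864, 3100 and 5898.

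LanB1 had its peak (chr2L:7813425-7813654) at rank 1073, with replicate ranks of 798, 996 and 2263 and a mean of 1352 ± 795 (SD, n = 3). The summit lay in the first intron of the longer transcript, 2117 bp from the 5′ end and 799 bp upstream of an internal TSS. The LanB2 peak (chr3L:9614524-9614893) lay 205 bp upstream of the TSS at rank 1949, with 2189, 1935 and 2719 in the replicates and a mean of 2281 ± 400 (SD, n = 3). At the LanB1 peak, the LanB2 peak and the stronger LanA peak, replicate 3 gave the highest rank number and all replicate ranks were inside the strongest 4261, which was not so for the weaker LanA peak.

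The type IV collagen genes and the linkers gave no thresholded peak. Col4a1 and vkg, which encode the collagen chains, had their strongest pooled entries at ranks 11083 and 18847. Col4a1 ranked 11819 and 11719 in replicates 1 and 3 with no entry in replicate 2, and vkg ranked 19932, 17986 and 15444. The vkg entries of replicates 1 and 3 lay in the gene body, and those of replicate 2 and the pooled list at a TSS. Pxn, the peroxidasin gene whose product crosslinks collagen, was at 23829, and Ppn, the papilin gene, at 26234, the lowest of the listed genes with a pooled entry. SPARC, which encodes a collagen-binding protein, was at 12909 in the pooled list and at 3477 in replicate 1, with no entry in replicates 2 and 3, so that replicate 1 alone placed it inside the strongest 4261. Glt, the glutactin gene, had no entry in any list. The grouping of laminins against the other 6 genes was made after their values were seen and was given no test.

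Over all 37 genes, 12 (32.4%) had no pooled entry, against the 58.0% given above. These shares, and those of the glial and hemocyte genes, were not matched for length. The listed genes were longer, with a median of 7366 bp against 2166 bp. Of the 27 genes without a thresholded peak, the 15 with a pooled entry ran from rank 4339 to 26234, with a median of 11083. The 7 genes with no entry in any list were gcm, alrm, Hml, eater, PPO1, PPO2 and Glt.

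Replicate 3 differed from the others by distance to the TSS. Of the 5 member peaks within 500 bp of a TSS, replicate 1 supported 5, replicate 2 supported 4 and replicate 3 supported 2, whereas of the 12 farther away the counts were 6, 10 and 8. Over all thresholded peaks with the summit within 500 bp of the nearest TSS, the supported shares were 79.9%, 80.7% and 59.3% for replicates 1, 2 and 3, and beyond 500 bp they were 74.7%, 79.5% and 76.9%. Within 100 bp of the nearest TSS they were 84.0%, 78.2% and 46.3%. The TSS peaks at Gli and Nrg, both within 100 bp, lacked support in replicate 3. The part of this difference in the class counts was not tested.

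Other genes of the same programmes, from lists that had been chosen with results of these data known, gave 10 of 53 with a thresholded peak at a TSS, against the 13.4% of all protein-coding genes, and 17 of 53 at a TSS or in the body, against the 18.2%. They were also longer, with a median of 8593 bp. Among 18 further glial genes, with a median length of 11670 bp, 4 (22.2%) had one at a TSS, against 13.4% of all protein-coding genes. At a TSS or in the body it was 5 (27.8%), against 18.2%. pnt, an ETS factor of the receptor tyrosine kinase pathway, had 7 peaks, of which the stronger at a TSS was rank 1776, with 1811, 1535 and 3424 in replicates 1 to 3. Gs1, the mitochondrial glutamine synthetase gene, had a summit 24 bp from its TSS at rank 1993, and replicate ranks of 935, 3911 and 9690. The gap junction gene Inx2 was at rank 2944 with 1684, 6148 and 9475, and the metalloprotease gene kuz at rank 2885 with 2795 and 2248 and no entry in replicate 3. As with Gli, the replicate 3 rank of these TSS peaks was the weakest for pnt, Gs1 and Inx2, and kuz had none. The strongest pnt peak, in the gene body at rank 1116, was highest in replicate 3, at 674 against 1357 and 2374.

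Of 19 further hemocyte genes, ush, a cofactor of GATA factors, was the 1 with a peak at a TSS, at rank 1239 with 857, 1115 and 2396, and its body held the strongest peak on any of these lists, at rank 5. The TSS nearest to that summit belonged to another gene, cbt, at 1413 bp, against 4881 bp to a TSS of ush. Including gene bodies, zfh1, Pvf1 and Pvf3 brought the count to 4 of 19 (21.1%), against 18.2% of all protein-coding genes. At a TSS the share was 5.26%, against 13.4%. Pvf1 and Pvf3 encode ligands of Pvr: the Pvf3 body had 3 peaks, the strongest at rank 1501 with 1925, 1844 and 1354, and the Pvf1 peak was at 3948, with no replicate supporting it. These body peaks, and those of wb, trol, mew, Dg and if given next, are named after their values were seen.

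Of 16 further basement membrane genes, 5 had a thresholded peak at a TSS (against 13.4% of all protein-coding genes) and 8 at a TSS or in the body (against 18.2%). Their median length was 13012 bp, and of all genes of 10 to 20 kb, 27.4% had a thresholded peak at a TSS and 44.5% at a TSS or in the body. Of the genes named next, wb, trol, mew, if and Mmp2 were over 20 kb, where these shares of all genes were 32.1% and 58.6%. wb, the other laminin alpha gene, had a body peak at rank 2201 with 2306, 2242 and 2972, and trol, the perlecan gene, one at 1204 with 1384, 2104 and 882. All 4 genes for laminin chains on the lists thus held a thresholded peak, a grouping made after their values were seen. LanB1 and LanB2 fall in the size group of 5 to 10 kb, LanA in that of 10 to 20 kb and wb in that over 20 kb. Of all genes in these size groups, 28.6%, 44.5% and 58.6% held a thresholded peak at a TSS or in the body. The integrin genes mys, mew and if, whose products bind laminin or other matrix ligands, had TSS peaks at ranks 3269, 2706 and 3715. mys and mew had no entry in replicate 3 for these peaks. The mew body also held peaks at ranks 789 and 1800, both supported by all 3 replicates. Rank 789, with 1109, 1119 and 604 in replicates 1 to 3, was stronger than any laminin peak, the best being at 931. The TSS nearest to the weaker of these body peaks belonged to CG32639. Dg had a body peak at 1742, with 3046, 1888 and 1331, and if had one at 3984. The if peak at 3715 was highest in replicate 3, at 2455 against 8409 and 4069, whereas a second TSS peak of if, at rank 4031, was at 4192 and 4179 in replicates 1 and 2 and had no entry in replicate 3. Plod, a collagen lysyl hydroxylase gene, was at 3231 with 1906 and 2796 and no entry in replicate 3, and the matrix metalloprotease gene Mmp2 at 2834 with 2061, 3901 and 6206.

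Known binding letters were counted within 50 bp of the 17 summits, on both strands, beside the same window around all thresholded summits. Matches to Gcm letters (ATGCGGGT, with A also allowed at the third letter) were found at 0 of 17, against 0.164% of all thresholded summits. The GATA letters (AGATAA, with T allowed first and G allowed last) were at 3 of 17, against 22.2%, at a Nrg intron peak, at PPO3 and at the weaker LanA peak, and not at srp. The Runx letters (AACCACA, with G allowed first and at the fifth place) stood at PPO3 alone, 1 of 17 against 2.84%. The DNA replication-related element TATCGATA and the E-box CACGTG were at 0 of 17 each, against 0.634% and 1.22%. GAGAG was at 7 of 17, against 15.4%: Gli, both loco peaks, the Nrg TSS peak, srp, the weaker LanA peak and LanB2. The forkhead core, GTAAACA with A allowed first and C and T exchangeable at the second and sixth places, was counted after the most common letters near all summits had been seen. It stood at 8 of 17 against 39.8%, and 300 bp to the side of all thresholded summits at 26.8%. A match describes the letters in the window and no binding by any factor.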

How the data were processed

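ChIP-seq of GFP-tagged CG12071 in whole embryos was given as lists of peaks, per replicate, pooled and thresholded. Per the sample file records, 1 control served the calls on each replicate and on the pool of all 3, and the irreproducible discovery rate gave the thresholded list. The aligner, the peak caller and read totals are not given in the sources used here, so depth is unknown. The assembly is dm6, per the labels. The deposited score of an entry is the authors' signal value, on a scale not stated, and was used for ranks inside 1 list alone. The −log10 q-value that the authors deposited was used to count entries with a q-value of at most 0.05. The deposited summit offset gave positions.

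Summits were assigned to the 19607 TSSs and to the bounds of 13945 protein-coding genes of Ensembl release 115, which shares coordinates with dm6, and a summit counted for every gene it touched. All entries fell inside the chromosome arms of that release. The assignment was tested on simulated data, where 200 of 200 summits placed within 500 bp of a TSS were recovered over 13945 genes. That test checked the code only, since each summit was placed by the rule used to find it. Sequence was RefSeq's copy of release 6. The members and lists were chosen with earlier results of these data known, as were the size groups of genes. No test was made of a class or a list, since 1 group gives no contrast, and the replicates measure spread only between these samples.

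All 37 genes are accounted for. Full values are given for each gene with a thresholded summit, and others are named where the pooled rank was under 8522 (2 times the thresholded length) or no list had an entry. The ranks of the remaining members were added after their values were seen. Non-members are named where they own the TSS nearest to a member's summit or where a gene of the other lists has a thresholded summit at a TSS. Intervals are Wilson 95% intervals. Alternatives were TSS windows of 250 and 1000 bp, 1 TSS per gene, stronger or fully supported peaks, q-value cuts, nearest-TSS assignment, gene bounds extended by 2 kb, other support distances, motif windows and leaving out each replicate. Single replicates alone and the forkhead letters were chosen after seeing the data. Computations used Python 3.11.15, NumPy 2.4.6, pandas 2.3.3, SciPy 1.17.1 and matplotlib 3.10.9.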

Additional observations from a re-analysis of the deposited data

How the results depend on the processing

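Of 96 alternative values, 57 kept within 1.5 times the reported count and 39 did not. No paired analysis was possible because the series holds 1 group. The glial count at a TSS (3) became 5 with a window of 1000 bp, 1 for peaks supported in all 3 replicates, 9 for pooled entries with a q-value of at most 0.05, 5 in replicate 2 alone, and 1 to 3 when each replicate was left out in turn. The glial count at a TSS or in the body (5) became 2 for peaks supported in all 3 replicates (moody and Gs2), 10 at the q-value limit, and 3 to 5 with a replicate left out. The hemocyte count at a TSS (1) became 0 at 250 bp, among the 2130 strongest peaks, with full support, with the nearest TSS only, in replicates 2 and 3 alone and without any 1 replicate (0 to 0), and became 2 at 1000 bp and in replicate 1 alone and 3 at the q-value limit. The hemocyte count at a TSS or in the body (2) became 0 among the 2130 strongest peaks, with full support and without any 1 replicate (0 to 0), became 1 with the nearest TSS only and in replicates 2 and 3 alone, and became 4 at the q-value limit. The basement membrane count at a TSS (1) became 3 at 1000 bp and 2 in replicate 1 alone. For genes with a peak at a TSS or in the body, LanA, LanB1 and LanB2 stayed counted under each setting listed for that count. Peaks supported in all 3 replicates (6) became 15 over all entries of the replicate lists and 10 at the q-value limit. GATA letters (3) became 5 at 100 bp, Runx letters (1) became 0 at 25 bp and 2 at 100 bp, GAGA letters (7) became 3 at 25 bp and forkhead letters (8) became 3 at 25 bp. Why these counts moved was not tested. For the class counts under changed settings, the share of all protein-coding genes was obtained only for single replicates, at a TSS or in the body. At the q-value limit 10242 pooled entries passed, against 4261 thresholded peaks, so the share of all genes could rise as well. A higher class count under these settings is therefore not a result about the class. Leaving a replicate out kept only peaks that both others supported, and the replicate left out had still shaped the thresholded list.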
